A study of Mus musculus with 8 samples.

Results

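Translation initiation and elongation factors were examined in hematopoietic stem cells of mice with the elektra mutation of Slfn2. The members were the genes whose symbol begins with Eif1 to Eif6 or with Eef1 or Eef2, without the eIF2 kinases, the sex-linked genes of the eIF2 gamma subunit and Eef1e1, which encodes a synthetase-bound protein. The rule found 55 of the 30802 genes that carry 1 symbol in the deposited table, and it used no measured difference. Of these 55, 52 lay at or above the level required for testing, a mean log2 signal of 6.17, which is the median over all features. The cap-binding gene Eif4e1b, the eIF5A paralog Eif5a2 and Eif2c5, listed by RefSeq as a noncoding RNA, lay below it. The feature of highest mean signal stood for a gene with several. Another 3 features carry a symbol that the rule would take together with a further symbol, and they were left out by the rule.

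Slfn2 belongs to the Schlafen gene family, and elektra is an allele of it that causes a loss of function. The mutant group held 4 arrays of Slfn2 elektra/elektra mice and the control group 4 arrays of Slfn2 wt/wt littermates, all with a C57Bl/6 background and all untreated. The mutation is carried in every tissue of the mice. The stem cells were sorted from c-Kit-enriched bone marrow as LSK cells (without lineage markers, with Sca-1 and c-Kit) that had high CD9, no CD48 and surface CD150. The sample notes say that a pair of mice of a genotype was pooled for each array, but the series text counts 4 mice in each genotype, and which of these holds is not settled. No age is stated for the mice. About 200 pg of RNA was amplified with 12 cycles of PCR for each array.

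Protein synthesis starts when eIF2, bound to GTP, brings the initiator tRNA to the small ribosomal subunit together with eIF1, eIF1A, eIF3 and eIF5. The eIF4F complex, made of the cap-binding protein eIF4E, the helicase eIF4A and the scaffold eIF4G, recruits the mRNA, and eIF5B joins the large subunit once the start codon is found. Elongation then runs on eEF1A, which delivers aminoacyl-tRNA, and eEF2, which moves the ribosome along. Synthesis is held back when eIF2 is phosphorylated, which blocks its exchange factor eIF2B, and when 4E-BP proteins bind eIF4E. Hematopoietic stem cells are known for a low rate of protein synthesis compared with their progeny.

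Sequences upstream of the annotated starts were read for motifs that some of the members hold. RefSeq promoter entries of the build GRCm38.p6 matched 41 of the 55 members, and the 250 bases before each start were searched on both strands for 3 motifs, CACGTG (the E-box bound by Myc with Max and by other factors of their class), CCGGAAGT (bound by ETS factors) and GCGCANGCGC (bound by NRF1). CACGTG stood before 11 of the 41 members, or 26.8%, and before 9.6% of the 10170 tested genes with an entry. GCGCANGCGC stood before 14.6% of the members and 8.62% of those genes, and CCGGAAGT before 12.2% and 6.24%. The 41 members include some below the level for testing. Among the tested members 10 had the E-box and 29 did not, while the counts were 6 and 33 for the NRF1 motif. For the ETS motif they were 4 and 35. A gene was counted if any of its windows held the motif, and 6 of the 41 members had several windows. No entry was found under the symbols Eef1d, Eif1-ps3, Eif1a, Eif2b3, Eif3e, Eif3h, Eif3i, Eif3j2, Eif4e1b, Eif4e3, Eif4ebp1, Eif4ebp3, Eif4g2 and Eif6. The 4 sequences shown are those of Eif2s1 and Eif3a, whose transcripts had the smallest limma p in their complexes, of Eif4h, the member with an E-box among those with an unadjusted p under 0.05, and of the cap-binding gene Eif4e. Capitals mark a motif. The lines give Eif2s1 at chr12:78861822-78862071 on the plus strand, Eif3a at chr19:60790694-60790943 on the minus strand, Eif4h at chr5:134639410-134639659 on the minus strand and Eif4e, for the second of its annotated starts, at chr3:138527018-138527267 on the plus strand.
Eif2s1: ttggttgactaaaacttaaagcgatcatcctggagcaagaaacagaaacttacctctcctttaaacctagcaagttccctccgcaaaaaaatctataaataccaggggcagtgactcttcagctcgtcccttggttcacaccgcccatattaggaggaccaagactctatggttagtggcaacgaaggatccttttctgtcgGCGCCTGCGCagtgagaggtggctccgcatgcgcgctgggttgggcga
Eif3a: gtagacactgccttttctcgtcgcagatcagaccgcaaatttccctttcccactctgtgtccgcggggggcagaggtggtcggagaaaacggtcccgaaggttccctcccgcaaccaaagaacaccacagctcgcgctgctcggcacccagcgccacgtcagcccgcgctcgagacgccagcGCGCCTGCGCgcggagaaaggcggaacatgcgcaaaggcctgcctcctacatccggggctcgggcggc
Eif4h: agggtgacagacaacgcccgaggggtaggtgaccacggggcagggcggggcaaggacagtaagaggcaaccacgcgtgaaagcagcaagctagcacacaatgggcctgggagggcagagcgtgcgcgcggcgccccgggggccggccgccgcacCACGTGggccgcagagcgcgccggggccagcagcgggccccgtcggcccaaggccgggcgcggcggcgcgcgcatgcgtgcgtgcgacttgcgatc
Eif4e: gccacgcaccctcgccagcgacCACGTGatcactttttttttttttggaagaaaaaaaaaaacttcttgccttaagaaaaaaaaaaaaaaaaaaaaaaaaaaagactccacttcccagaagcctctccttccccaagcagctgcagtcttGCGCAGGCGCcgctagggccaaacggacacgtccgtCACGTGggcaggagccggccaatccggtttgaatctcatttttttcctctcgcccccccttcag
The NRF1 motif began 48 bases before the start of Eif2s1 and 68 before that of Eif3a. The E-box of Eif4h began at 96 bases, and Eif4e had E-boxes at 228 and 64 bases and the NRF1 motif at 100.

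Array quality and cell identity were as follows. Array medians lay between 6.11 and 6.26 log2. All 12 stem cell markers, among them Slamf1 (CD150), Procr, Mecom and Kit, passed the level filter, and their mean signal ranged from 9.75 to 9.91 on elektra arrays and from 9.73 to 9.92 on wildtype arrays. Cd48, absent from the surface of the sorted cells, lay below the filter. Of the marker lists of other lineages, 1 of 5 B cell genes, 1 of 5 T and NK cell genes, 4 of 8 granulocyte genes, 2 of 4 erythroid genes, 2 of 4 monocyte genes and 4 of 5 megakaryocyte genes passed it. The mean of the granulocyte genes was 7.33 on elektra replicate 4 while the remaining 7 arrays ranged from 6.13 to 6.61. The Slfn2 transcript was 0.33 log2 higher in elektra, with an interval from -0.16 to 0.81 (limma adjusted p = 0.598), and elektra is not a deletion, so its level does not check the labels. Xist was at 5.06 and 5.37 on replicate 3 of elektra and of wildtype and between 10.26 and 10.79 elsewhere.

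Most translation factor transcripts had a slightly higher mean in elektra stem cells, and none of them passed the test over all genes. The largest differences were those of Eif5b, the factor of subunit joining, at 0.45 log2, and Eif2s1, which encodes the alpha subunit of eIF2, at 0.43, which are 1.36-fold and 1.35-fold. Of the 52 members tested, 42 had a higher mean in elektra, or 80.8%, where 53.1% of all 15710 genes tested did. An adjusted p under 0.05 was reached by 0 members, with the smallest at 0.259 (limma, 2-sided, Benjamini-Hochberg over all genes tested), and by 0.0382% of all genes. Before adjustment, limma gave 9 members a p under 0.05 with a higher mean and 0 with a lower one, or 17.3% and 0%, against 7.02% and 3.95% of all genes. The 9 were Eif2s1, Eif3a, Eif5b, Eif3b, Eif4b, Eif3j2, Eif4h, Eif2b4 and Eif4ebp3. For 4 members, Eif2s1, Eif3a, Eif3b and Eef2, the lowest elektra array exceeded the highest wildtype array, and for 0 the reverse held, against 3.90% and 2.37% of all genes.

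The members' median difference was 0.095 log2, against 0.012 over all genes tested. Most members have a high signal, and genes of high signal as a whole lay slightly higher in elektra on these arrays. Among the 7946 genes at or above the upper quartile of level, 63.3% had a higher mean in elektra, the median difference was 0.05, and an unadjusted limma p under 0.05 was found for 10.5% with a higher and 3.81% with a lower mean. The 48 members at that level had a median of 0.095, with 81.2% higher by their mean and 8, or 16.7%, at an unadjusted p under 0.05. Between the members of lower and of higher level, split at their median of 9.32 into 26 and 26, the median differences were 0.081 and 0.104. The standard error of a member's difference had a median of 0.105, and for 48 of the 52 members the 95% interval stayed within 1.5-fold in either direction. No member's interval lay below 0. The wildtype and mutant cells are bulk samples, so fewer cells with a transcript and less of it per cell cannot be told apart.

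**Figure D1:**
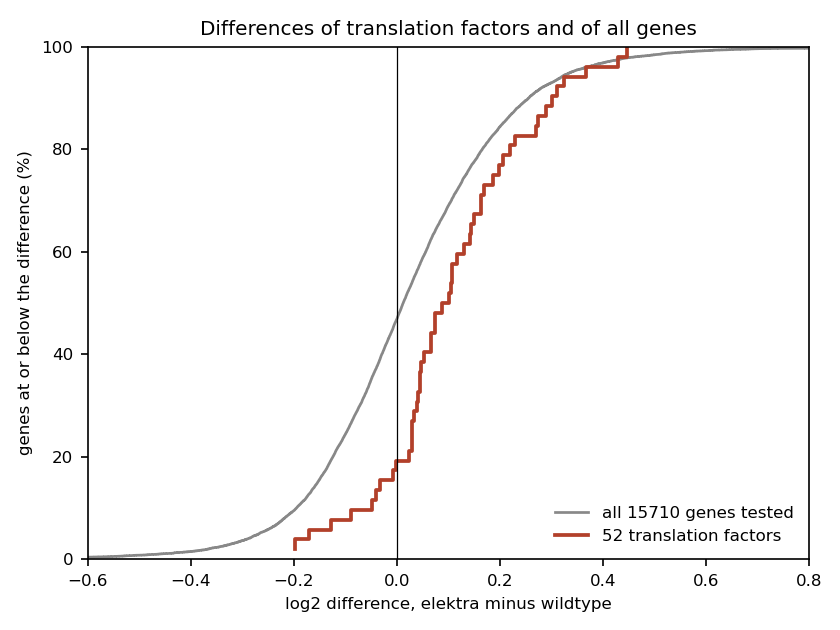
Cumulative share of genes (vertical axis, %) by log2 difference, elektra minus wildtype (horizontal axis), for the 52 translation factors tested (red) and all 15710 genes tested (grey). The red curve lies to the right of the grey one around the median, 0.095 against 0.012, and ends at 0.45.

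The count and the median depended on scaling and on single arrays. After quantile normalization over all features the unadjusted test gave 5 higher and 2 lower members, against 5.40% and 5.07% of all genes, and the median was 0.047, against -0.006 for all genes. The 2 lower members were Eif1 at -0.22 and Eif4ebp1 at -0.25. With arrays centred on their medians the count of higher members was 12, against 9.57% of all genes, and the median 0.143, against 0.061. That count was 4 without wildtype replicate 3 and 5 without elektra replicate 1, where 6.02% and 4.93% of all genes were higher.

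**Figure D2:**
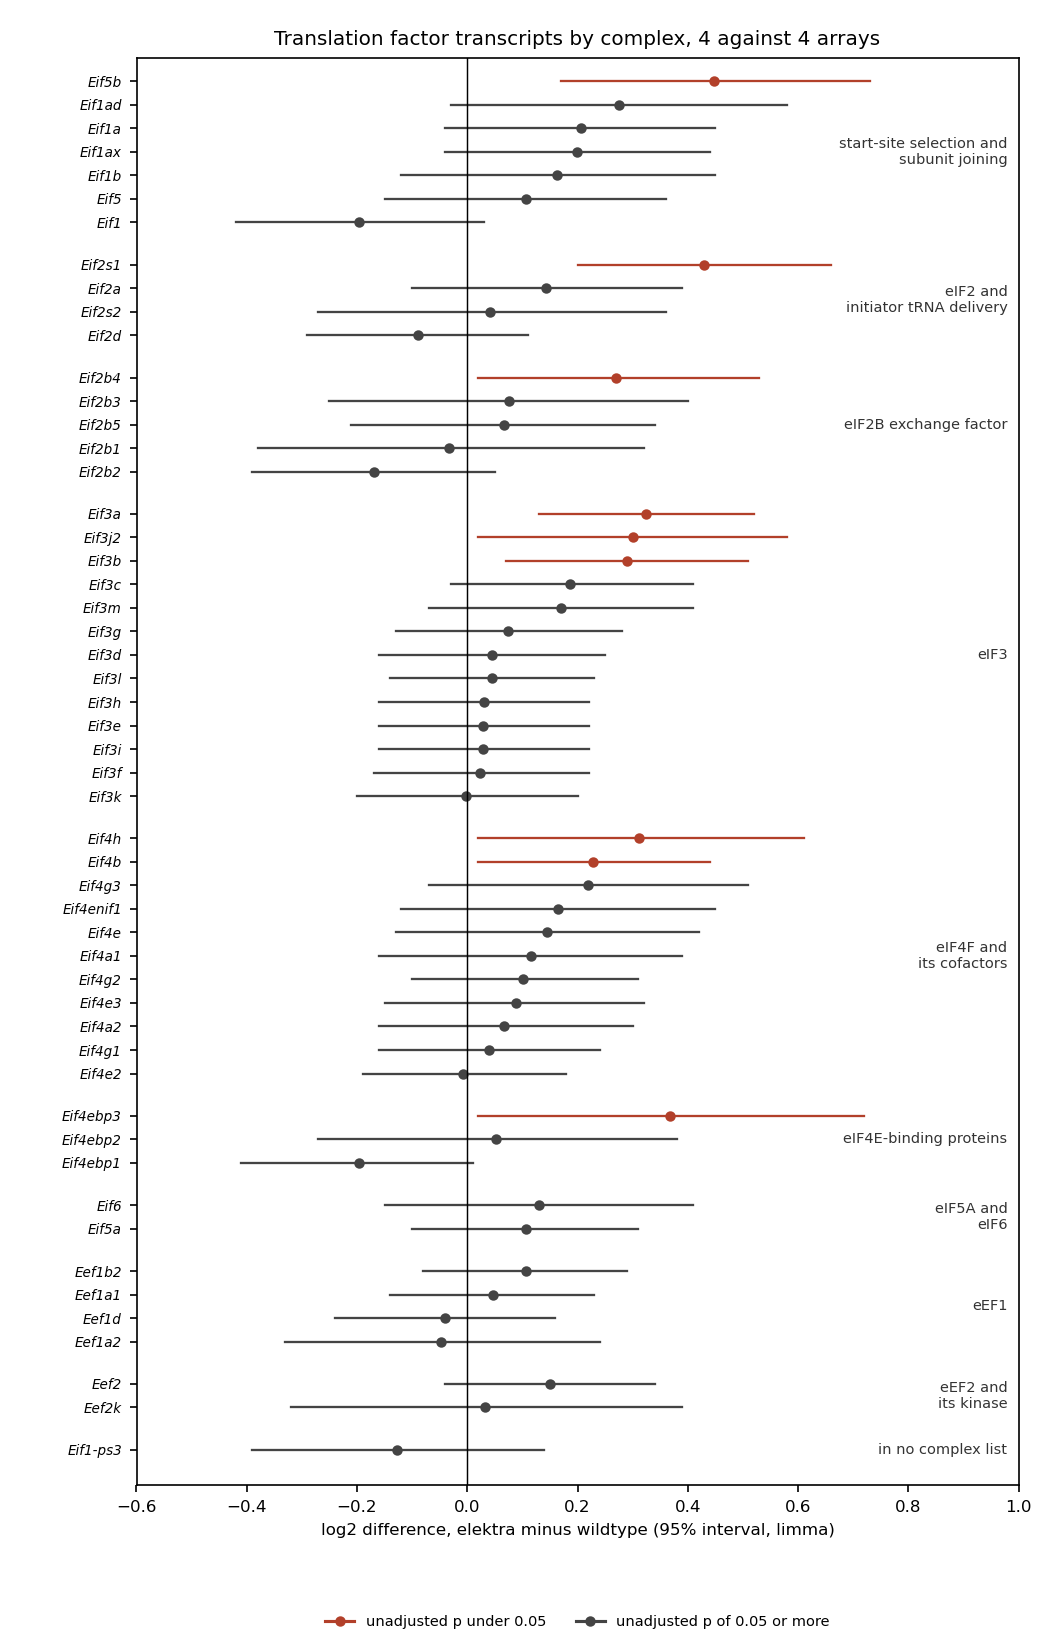
Log2 difference, elektra minus wildtype, with its 95% interval from limma (horizontal axis), for each of the 52 members tested, grouped by complex. The 9 members in red had an unadjusted p under 0.05, and all of their intervals lie above 0, while those of the other 43 members include 0.

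The eIF2 complex binds GTP and the initiator tRNA, and its alpha subunit is the site at which stress kinases shut initiation down. Eif2s1, the alpha subunit gene, read 8.74, 8.73, 8.71 and 8.82 on the elektra arrays and 8.52, 8.42, 8.13 and 8.21 on the wildtype arrays. Every elektra array was above every wildtype array, and the elektra values spanned little. The difference was 0.43 (standard error 0.11), with a 95% interval from 0.20 to 0.66 (limma adjusted p = 0.259). Across the 19 alternative settings it lay between 0.36 and 0.50, with an unadjusted p under 0.05 in all 19 and an adjusted p from 0.154 to 0.531. The beta subunit gene Eif2s2 differed by 0.04, with an interval from -0.27 to 0.36. Eif2a, a separate initiation factor despite its symbol, differed by 0.14, and Eif2d, which can deliver tRNA without eIF2, by -0.09.

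The exchange factor eIF2B reloads eIF2 with GTP and has 5 subunits, of which the epsilon subunit encoded by Eif2b5 is catalytic. The subunit genes did not share a direction, since 3 had a higher and 2 a lower mean in elektra. Eif2b4, the delta subunit gene, read 7.30, 7.14, 7.30 and 7.30 on the elektra arrays and 7.14, 6.81, 6.81 and 7.21 on the wildtype arrays. Wildtype replicates 1 and 4 reached into the elektra range. Its difference was 0.27 with an interval from 0.02 to 0.53 (limma adjusted p = 0.429), and the unadjusted p was under 0.05 in 10 of 18 settings. For Eif2b5 the elektra arrays were at 7.96, 8.09, 8.06 and 8.15 and the wildtype arrays at 8.20, 7.91, 7.70 and 8.18, which overlap widely, with a difference of 0.07 that turned to -0.03 without wildtype replicate 3. Eif2b2, the beta subunit gene, was the lowest of the 5 at -0.17, with an interval from -0.39 to 0.05.

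eIF3 is the largest initiation factor, a scaffold of many subunits that holds the small ribosomal subunit open for mRNA. All 13 subunit genes measured were tested, and the median difference was only 0.045. A higher mean in elektra was found for 12, or 92.3%, against 53.1% of all genes tested and 63.3% of those of high signal. Eif3a, which encodes the largest subunit, read 9.35, 9.41, 9.34 and 9.46 in elektra and 9.20, 9.07, 8.99 and 8.99 in wildtype. The groups did not overlap. The difference was 0.33 with a standard error of 0.09 and an interval from 0.13 to 0.52 (limma adjusted p = 0.294), it lay between 0.27 and 0.37 over 19 alternative settings, and its unadjusted p was under 0.05 in all 19.

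Eif3b, which encodes the subunit that carries eIF3g and eIF3i, read 9.82, 9.90, 9.80 and 9.62 in elektra and 9.53, 9.33, 9.55 and 9.57 in wildtype. These groups also did not overlap, although elektra replicate 4 came close to the highest wildtype array. The difference was 0.29, with an interval from 0.07 to 0.51 (limma adjusted p = 0.359). Eif3j2, a copy of the gene for the loosely bound subunit eIF3j, read 8.85, 8.92, 9.13 and 9.0 in elektra and 8.95, 8.59, 8.39 and 8.77 in wildtype, with a difference of 0.30 and an interval from 0.02 to 0.58. Wildtype replicate 1 lay above 2 of the elektra arrays. The gene has a near-identical paralog, Eif3j1, for which no feature was analysed here, so whether the signal holds transcripts of both genes is uncertain.

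The other 10 eIF3 genes had smaller differences. Eif3c, a further subunit of the core, was at 0.19 and Eif3m at 0.17, with intervals from -0.03 to 0.41 and from -0.07 to 0.41. The 8 remaining genes, Eif3d, Eif3e, Eif3f, Eif3g, Eif3h, Eif3i, Eif3k and Eif3l, lay between -0.002 and 0.07. Their intervals were narrow, for example from -0.16 to 0.22 for Eif3e and from -0.16 to 0.22 for Eif3h. Whether the subunits differ from each other in their response was not tested.

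The factors of start-site selection and subunit joining had the highest median of the complexes with 3 or more members tested, 0.199 over 7 genes. Relative to each gene's mean over the 8 arrays, their median was 0.25, 0.03, 0.19 and -0.02 on the elektra arrays and -0.04, -0.28, -0.01 and 0.01 on the wildtype arrays, so the groups crossed. Eif5b, whose product is the GTPase of subunit joining, read 8.40, 8.07, 8.24 and 8.37 in elektra and 8.14, 7.76, 7.73 and 7.66 in wildtype. Only wildtype replicate 1 lay above an elektra array, replicate 2. The difference was 0.45 with a standard error of 0.13 and an interval from 0.17 to 0.73 (limma adjusted p = 0.301), from 0.31 to 0.55 over 19 settings, with an unadjusted p under 0.05 in all 19.

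The paralogs Eif1a and Eif1ax, which encode eIF1A, differed by 0.21 and 0.20, Eif1b by 0.16 and Eif5, the GTPase activator of eIF2, by 0.11. Eif1ad, which encodes a protein with an eIF1A-like domain, was at 0.28 with an interval from -0.03 to 0.58. Eif1, the factor that guards start codon selection, had the opposite sign at -0.20, with an interval from -0.42 to 0.03 (limma adjusted p = 0.497). Its pseudogene Eif1-ps3 was at -0.13, and whether the array tells the pseudogene from its parent is uncertain.

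**Figure D3:**
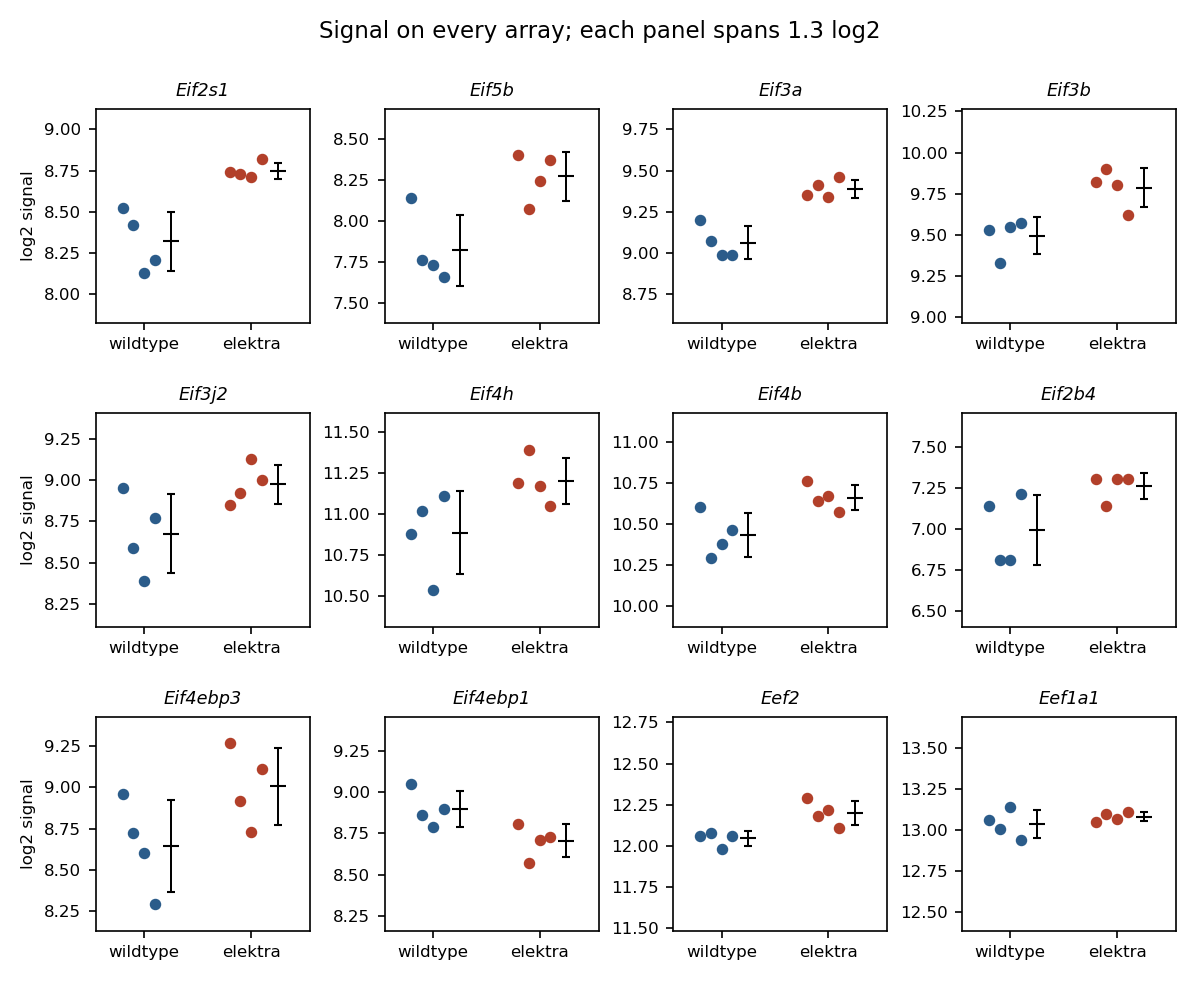
Log2 signal (vertical axis, each panel spanning the same range) of 12 members on each of the 4 wildtype (blue) and 4 elektra (red) arrays in order of replicate number, with the mean and SD of each group (black). The groups are apart for Eif2s1, Eif3a, Eif3b and Eef2, overlap for Eif5b, Eif3j2, Eif4h, Eif4b, Eif2b4, Eif4ebp3 and Eif4ebp1, and nearly coincide for Eef1a1.

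eIF4F and its cofactors bring capped mRNA to the ribosome. Of 11 members tested, 10, or 90.9%, lay higher in elektra by their mean, and the median was 0.116. A higher mean was found for 53.1% of all genes tested and 63.3% of those of high signal. At an unadjusted limma p under 0.05, 2 cofactors of the helicase were higher, or 18.2%, against 7.02% and 10.5%. Eif4h read 11.19, 11.39, 11.17 and 11.05 in elektra and 10.88, 11.02, 10.54 and 11.11 in wildtype. Wildtype replicate 3 was far below the rest and wildtype replicate 4 lay within the elektra range. The difference was 0.31 with an interval from 0.02 to 0.61 (limma adjusted p = 0.428).

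Eif4b, the other helicase cofactor, read 10.76, 10.64, 10.67 and 10.57 in elektra and 10.60, 10.29, 10.38 and 10.46 in wildtype, where replicate 1 lay above elektra replicate 4. Its difference was 0.23 with an interval from 0.02 to 0.44 (limma adjusted p = 0.424). For Eif4h and Eif4b the unadjusted p was under 0.05 in 11 and 10 of 19 settings, and it was 0.05 or more for both with quantile normalization.

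The 3 core subunits showed smaller differences within the spread of the arrays. Eif4e, the cap-binding protein gene, read 9.63, 9.74, 9.67 and 9.51 in elektra and 9.64, 9.71, 9.17 and 9.44 in wildtype, so wildtype replicate 3 was low and the rest overlapped, with a difference of 0.14 and an interval from -0.13 to 0.42. Eif4a1, the helicase gene, read 10.00, 10.01, 10.05 and 9.77 in elektra and 9.86, 9.89, 10.08 and 9.53 in wildtype, with overlap and a difference of 0.12. Eif4g1, the scaffold gene, read 8.91, 9.07, 8.83 and 8.90 in elektra and 8.93, 8.92, 8.77 and 8.94 in wildtype. Its groups overlapped almost fully, the difference was 0.04 with an interval from -0.16 to 0.24, and it turned to -0.01 without elektra replicate 2 and with quantile normalization.

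Among paralogs of the core subunits, Eif4g3 was at 0.22, Eif4g2, whose product lacks the eIF4E-binding part, at 0.10, Eif4e3 at 0.09, Eif4a2 at 0.07 and the cap-binding repressor gene Eif4e2 at -0.01. Eif4enif1, which encodes the eIF4E transporter, was at 0.16.

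The 4E-BP genes encode the repressors that compete with eIF4G for eIF4E, and their differences went in opposite directions. Eif4ebp1 read 8.81, 8.57, 8.71 and 8.73 in elektra and 9.05, 8.86, 8.79 and 8.90 in wildtype. Only elektra replicate 1 lay above a wildtype array, replicate 3. The difference was -0.20 with an interval from -0.41 to 0.01 (limma adjusted p = 0.476), and from -0.26 to -0.15 over 19 settings. Eif4ebp3 read 9.27, 8.92, 8.73 and 9.11 in elektra and 8.96, 8.72, 8.60 and 8.29 in wildtype, with a difference of 0.37 and an interval from 0.02 to 0.72 (limma adjusted p = 0.429). Its groups overlapped, and in a fit that took account of each array's interquartile range the difference was 0.17. Eif4ebp2 read 8.48, 8.37, 8.27 and 8.39 in elektra and 8.72, 8.09, 8.05 and 8.44 in wildtype. The wildtype arrays lay on both sides of the elektra arrays, and the difference of 0.05 changed sign in 5 settings.

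eIF5A helps the ribosome past difficult peptide bonds, and eIF6 keeps free large subunits from joining too early. Eif5a read 9.60, 9.54, 9.47 and 9.37 in elektra and 9.51, 9.35, 9.40 and 9.31 in wildtype, with a difference of 0.11 and an interval from -0.10 to 0.31. Eif6 read 9.68, 9.58, 9.47 and 9.41 in elektra and 9.29, 9.36, 9.21 and 9.76 in wildtype. Wildtype replicate 4 was the highest of the 8 arrays, and without it the difference of 0.13 was 0.25.

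Elongation factor transcripts differed by -0.05 for Eef1a2 up to 0.15 for Eef2. The 4 members of eEF1 tested had a median difference of 0.003. Eef1a1, which encodes the main carrier of aminoacyl-tRNA, read 13.05, 13.10, 13.07 and 13.11 in elektra and 13.06, 13.01, 13.14 and 12.94 in wildtype. The groups overlapped, with a difference of 0.05 and an interval from -0.14 to 0.23. The gene has 3 features, and those of lower signal differed by -0.015 and -0.019, so they disagree with the first in sign and lie within its interval.

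Eef1b2, a subunit of the exchange factor of eEF1A, read 11.79, 11.71, 11.68 and 11.63 in elektra and 11.66, 11.60, 11.53 and 11.59 in wildtype. Only elektra replicate 4 lay below a wildtype array, replicate 1, and the difference was 0.11 with an interval from -0.08 to 0.29 (limma adjusted p = 0.651). Eef1d, another subunit of that factor, was at -0.04 and the muscle and nerve paralog Eef1a2 at -0.05.

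Eef2, which encodes the translocase, read 12.29, 12.18, 12.22 and 12.11 in elektra and 12.06, 12.08, 11.98 and 12.06 in wildtype. Its groups did not overlap, but the difference was small, 0.15 with an interval from -0.04 to 0.34 (limma adjusted p = 0.535). Eef2k, the kinase that inhibits eEF2, read 8.59, 8.38, 8.48 and 8.37 in elektra and 8.54, 8.37, 7.96 and 8.82 in wildtype. The wildtype arrays spanned the elektra arrays, the difference was 0.03, and it turned to -0.12 without wildtype replicate 3 and to -0.01 without elektra replicate 1.

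The authors' deposited table gives a p-value that is not adjusted, and in it 7 members were higher and 1 lower at a p under 0.05, against 6.19% and 3.88% of all genes tested. By the authors' deposited table the 7 were Eif3a, Eif2s1, Eif3b, Eif5b, Eef2, Eif4b and Eef1b2, and the lower one was Eif4ebp1 at a p of 0.0382. Eef2 and Eef1b2, with a small spread over the arrays, had an authors' p of 0.0155 and 0.046 in that deposited table, whereas limma gave 0.105 and 0.23 before adjustment.

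Genes of translation outside the rule were taken from 6 lists, with 48 genes tested. Of these 35, or 72.9%, had a higher mean in elektra, against 53.1% of all genes and 63.3% of those of high signal. The median difference was 0.099, against 0.012 and 0.05. An unadjusted limma p under 0.05 was found for 5 higher genes and 1 lower gene, and 0 passed over all genes. These are 10.4% and 2.08%, against 7.02% and 3.95% of all genes and 10.5% and 3.81% of those of high signal, so the share of higher genes is near that among genes of high signal. The 5 were Dhx29, Mtrf1, Pdcd4, Dnajc24 and Abcf1, the last named after its values were seen.

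Dhx29, a helicase that helps the ribosome scan structured leaders, read 8.06, 7.74, 7.94 and 7.71 in elektra and 7.42, 7.36, 7.21 and 7.21 in wildtype. The groups did not overlap, and the difference was 0.57, or 1.48-fold (limma adjusted p = 0.132). Pdcd4, whose product inhibits eIF4A, read 10.25, 10.35, 10.48 and 10.44 in elektra and 10.18, 9.86, 10.04 and 10.23 in wildtype, again with no overlap, and differed by 0.31 (limma adjusted p = 0.359). Of this list of kinases, repressor and helicases, 3 of 9 were higher at an unadjusted limma p under 0.05. The share was 10.4% over all the outside lists together, 7.02% of all genes and 10.5% of those of high signal.

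All 9 genes of termination, recycling and reinitiation lay higher in elektra by their mean, with a median of 0.181. Such a higher mean was found for 53.1% of all genes tested and 63.3% of those of high signal. An unadjusted p under 0.05 with limma was reached by 0 of the 9. Gspt1, which encodes the release factor eRF3a, differed by 0.19 without overlap of the groups (limma adjusted p = 0.459), and Etf1, which encodes eRF1, by 0.43 with overlap (limma adjusted p = 0.479). Of the 9 mitochondrial translation factors 8 had a higher mean, with a median of 0.093, and the mitochondrial release factor gene Mtrf1 was at 0.43 (limma adjusted p = 0.349) and the initiation factor gene Mtif2 at 0.18.

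The 8 genes of hypusine and diphthamide, the modifications of eIF5A and eEF2, had a median of 0.101, with the diphthamide genes Dnajc24 at 0.26 and Dph5 at 0.22. The 4 genes of poly(A)-binding proteins and their partners had a median of -0.021, with Paip1 at 0.16 and Paip2 at -0.09. Among the 9 genes of eIF2 gamma, eIF2 kinases and phosphatase subunits the median was 0.064. Ppp1r15a, the stress-induced phosphatase subunit that restores eIF2, read 10.78, 10.85, 11.20 and 10.53 in elektra and 11.37, 11.34, 11.71 and 10.80 in wildtype. It was lower by its mean, with a difference of -0.47 (limma adjusted p = 0.412), and wildtype replicate 4 lay within the elektra range. The Y-linked gamma subunit gene Eif2s3y was at 0.37, and at 0.16 without elektra replicate 3, 1 of the 2 arrays of low Xist, where it read 9.10. The other array of low Xist read 8.11, within the 7.76 to 8.67 of the 6 arrays of high Xist, so whether the feature measures the Y-linked transcript is uncertain.

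By array, the translation factors were set beside other lists and the spread of the arrays. The median deviation of the 52 members from their mean over the 8 arrays was 0.09, 0.06, 0.03 and -0.01 on the elektra arrays and 0.01, -0.05, -0.10 and -0.06 on the wildtype arrays, so elektra replicate 4 and wildtype replicate 1 crossed. Each of the 14 markers of cycling cells had a higher elektra mean, against 53.1% of all genes tested, with a median difference of 0.305. At an unadjusted limma p under 0.05, 9 of them, or 64.3%, were higher, against 7.02% of all genes tested. Their median deviations were 0.23, 0.00, 0.22 and 0.14 on elektra arrays and -0.07, -0.37, -0.27 and 0.10 on wildtype arrays. In both lists elektra replicate 1 was the highest array, and wildtype replicates 2 and 3 were negative. Elektra replicate 2 was at 0.06 for translation factors and 0.00 for cycling markers, and wildtype replicate 4 at -0.06 and 0.10. The mean signal of the cycling markers ranged from 8.68 to 9.03 in elektra and from 8.24 to 8.75 in wildtype. That of the 6 markers of early progenitors ranged from 7.98 to 8.20 and from 7.43 to 7.84, without overlap. Plac8 differed by 1.3 (limma adjusted p = 0.0114), Cd53 by 0.92 and Cd34 by 0.39, each without overlap. Flt3 differed by 0.2 and Cd27 and Cd48 by 0.14, with overlap. The mean signal of the 5 megakaryocyte markers ranged from 7.94 to 8.10 and from 7.72 to 7.90. Pf4 differed by 0.61 and Itga2b by 0.39 without overlap, and Gp9, Gp1bb and Ppbp by 0.01, 0.07 and 0.05 with overlap. Of all genes tested, 3.90% lay higher in elektra without overlap, and 0.0382% had a limma adjusted p under 0.05. The part of these lists in the differences of the translation factors was not tested.

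The interquartile range of an array was 2.67, 2.60, 2.50 and 2.62 log2 in elektra and 2.64, 2.41, 2.50 and 2.48 in wildtype. With it as a covariate, limma gave an unadjusted p under 0.05 to 3 higher members and 1 lower member, against 4.52% and 3.40% of all genes, and the members' median was 0.057, against 0.015. The 3 were Eif2s1 at 0.37, Eif5b at 0.31 and Eif3a at 0.27, and the lower one was Eif4ebp1 at -0.26.

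Of the other parts of the translation machinery, the 36 aminoacyl-tRNA synthetase genes had a median difference of 0.205 and the 60 cytosolic ribosomal protein genes one of -0.005. The median of the translation factors, 0.095, lay between them. At a limma p under 0.05 before adjustment, 10 synthetase genes (27.8%) had a higher and 0 a lower mean. Of the ribosomal protein genes, 0 were higher and 2 (3.33%) lower at that p, against 7.02% and 3.95% of all genes. The lowest elektra value exceeded the highest wildtype value for 6 synthetase and 0 ribosomal protein genes, against 3.90% of all genes. The reverse held for 0 synthetase and 7 ribosomal protein genes, against 2.37% of all genes. Whether these lists differ from each other was not tested.

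**Figure D4:**
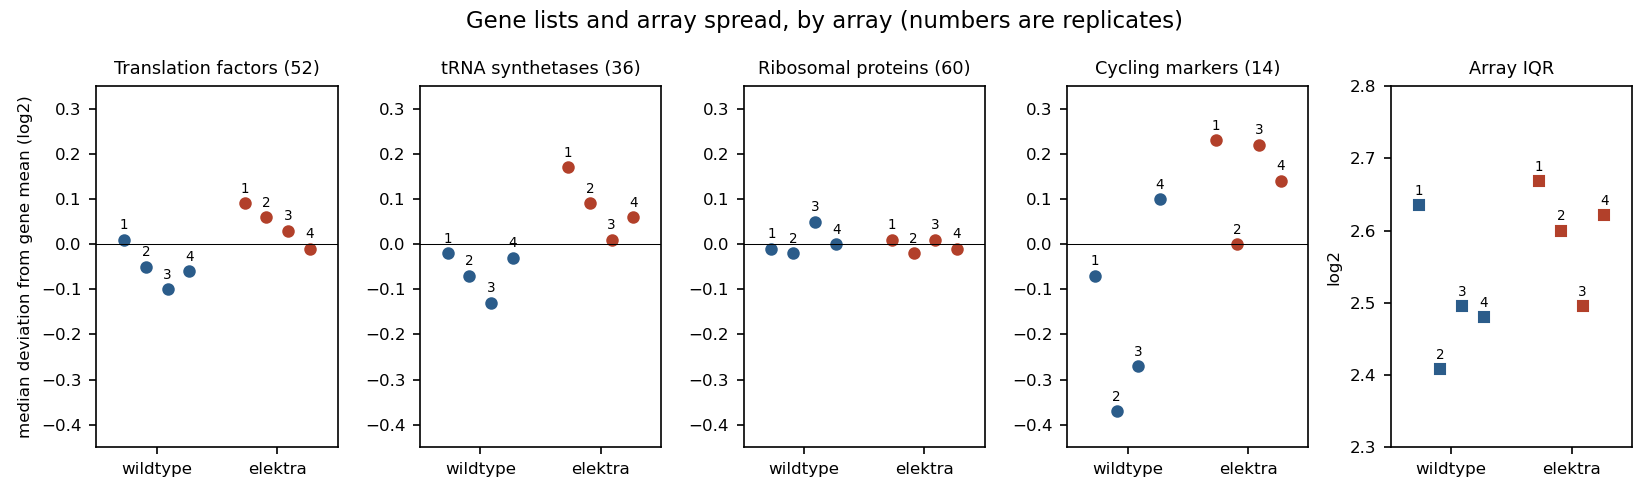
Median deviation from each gene's mean over the 8 arrays (vertical axis, log2) for translation factors, aminoacyl-tRNA synthetases, cytosolic ribosomal proteins and cycling markers, and the interquartile range (IQR) of each array in log2 (right panel), for wildtype (blue) and elektra (red) arrays labelled by replicate number. Translation factors range from -0.10 to 0.09, cycling markers from -0.37 to 0.23 and ribosomal proteins from -0.02 to 0.05.

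The members' differences are given here by upstream motif, and none of these contrasts was tested. The 10 tested members with the E-box had a median difference of 0.112 and the 29 without it one of 0.106, and 1 and 6 of them, respectively, were higher at an unadjusted p under 0.05. With the NRF1 motif the median was 0.126 over 6 members, 2 of them higher at that p, and without it 0.106 over 33, with 5 higher. With the ETS motif it was 0.045 over 4 members, 0 of them higher at that limma p, and without it 0.116 over 35, with 7 higher. Of all genes tested 7.02% were higher at that p, and 10.5% of those of high signal. The share among all genes that hold each motif was not counted.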

How the data were processed

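The authors made the deposited log2 signals with RMA in Affymetrix Expression Console 1.4, per the submitters' processing notes; no source used here gives the array design, its annotation or the filter behind the 33793 listed features. The deposited workbook also holds the authors' means, log2 ratio and p-value, which is not adjusted, and a signed fold change that the authors derived from the ratio, a score not used here. RMA adjusts arrays to one another, so differences are relative to the other genes of an array, although the deposited signals still differ between arrays in median and interquartile range. The deposited series table of 41345 features, whose log2 signals differ by at most 0.158 for shared features, served as an alternative.

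For each of the features with 1 symbol the feature of highest mean was kept per gene, and 15710 genes with a mean at or above 6.17 log2 were tested in R 4.3.3 with limma 3.58.1 (functions lmFit and eBayes), elektra minus wildtype, 4 against 4 arrays, without covariates and with Benjamini-Hochberg adjustment. Values of the 3 members below that level come from a fit without the filter. The procedure was tested on simulated data. The members and lists were chosen with earlier results of these data known. Every member could be named; values on every array are given for members with an unadjusted p under 0.05, the member of smallest p in each complex and 13 members chosen for their roles, and up to 2 genes of smallest p were named in each outside list. No set test was made. P-values measure the spread between arrays. Upstream sequences and current gene types come from RefSeq tables of GRCm38.p6.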

Additional observations from a re-analysis of the deposited data

Results flagged for a closer look

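In 5 groups of 4 arrays, among 66 examined for the named genes, 1 array stood apart from the other 3 by more than Dixon's 95% critical value of 0.829 of the group's range, where chance gives about 5% of groups. Eif2b4 read 7.14 on elektra replicate 2, against 7.30 on the other 3 elektra arrays. Eif4g1 read 8.77 on wildtype replicate 3, against 8.92 to 8.94. Dnajc24 read 8.17 on wildtype replicate 1, against 8.35 to 8.38. Mtif2 read 7.24 on elektra replicate 2, against 7.48 to 7.52, and 7.45 on wildtype replicate 4, against 7.18 to 7.21.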

How the results depend on the processing

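Each result was recomputed under 19 alternatives, and 0 translation factors passed an adjusted p of 0.05 in any of them; 35 of the 52 kept their sign throughout. The count of members higher at an unadjusted p under 0.05 was 9, against 7.02% of all genes. It was 5 with quantile normalization (5.40% of all genes) and 3 with the interquartile range as a covariate (4.52%). Without replicate 3 of both genotypes it was 5, and with 1 array left out it was 4 to 9. Of all genes, 4.93% were higher without elektra replicate 1 and 6.02% without wildtype replicate 3. The count of lower members, 0, stood against 3.95% of all genes. It was 2 with quantile normalization (5.07%), 1 with trend and robust variances, 1 with that covariate (3.40%) and 0 to 1 with 1 array left out. These shares of all genes are not given here for trend and robust variances, the replicate block, replicate 3 left out or most fits without 1 array. The members' median of 0.095 was 0.047 after quantile normalization, 0.143 after median centring of the arrays and 0.076 to 0.128 with 1 array left out. With centring the eIF3 median was 0.094; with the covariate the medians of the 4E-BP and eEF1 genes were -0.144 and 0.054. The share of higher genes among all genes at an unadjusted p under 0.05 was 64.0%, 51.6% with quantile normalization and 82.0% with centring. Of the 17 members whose sign turned in a setting, 4 are among those given by array. Eif4g1 was at -0.01 with quantile normalization and between -0.01 (without elektra replicate 2) and 0.07 with 1 array left out, with -0.0018 without wildtype replicate 3. Eif4ebp2 was at -0.0027 with quantile normalization, -0.14 with the covariate, -0.0025 without replicate 3 of both genotypes, -0.02 without wildtype replicate 2 and -0.04 without wildtype replicate 3, the lowest of a range up to 0.18 with 1 array left out. Eif2b5 was at -0.03 without replicate 3 of both genotypes and without wildtype replicate 3, with up to 0.13 for other arrays left out. Eef2k was at -0.02 with quantile normalization, -0.01 with the covariate, -0.13 without replicate 3 of both genotypes, -0.01 without elektra replicate 1 and -0.12 without wildtype replicate 3, with up to 0.16 for other arrays left out. The causes were not tested. With replicate number as a block the count of higher members was 8 and of lower ones 0, but same-numbered arrays deviated together with correlations of only 0.14, 0.024, 0.126 and -0.002, so the numbers are not taken as pairs. The precision is limited by the number of arrays.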
